A study of Homo sapiens with 9 samples.

Results

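Coagulation and complement are the plasma protease systems that the liver makes for the rest of the body, and 45 of their genes were followed here in human liver tumours grown in mice. The 45 genes were chosen by symbol, with earlier results of these data known, and comprise 22 coagulation and fibrinolysis genes and 23 complement genes. They were read by 75 of the 43906 named probes of an Illumina expression array. Of the 45 genes, 38 had at least 1 probe above background on at least 3 of the 9 arrays and entered the tests, among 15387 genes in all.

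The tumours came from Hep3B, a single human hepatocellular carcinoma line, which was placed by surgery in Nod/Scid mouse livers about 5 weeks earlier. Nod/Scid mice lack functional B and T cells, and their host liver, vessels and phagocytes remain and can add RNA to a whole tumour. Such RNA is mouse RNA, and how far the probes, named by human genes, read it was not tested. Each animal had 1 intravenous injection 24 hours before the tumour was taken, and the groups were dilution buffer, empty liposomes (the carrier control) and MRX34, with 3 arrays each. MRX34 is a liposomal mimic of the tumour-suppressor microRNA miR-34a. The labels used here give neither the age of the mice nor the dose, nor do they tie each array to its own animal. Spread between arrays, on which every p-value rests, may therefore be technical in part.

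In clotting, tissue factor and factor VII start a chain of proteases that ends in thrombin, which turns fibrinogen into fibrin. Antithrombin, the protein C system and tissue factor pathway inhibitor hold that chain back, and plasmin dissolves the clot. In complement, the lectin, classical and alternative routes meet at the cleavage of C3, after which C5 to C9 assemble a pore in the target membrane, while regulators such as C4b-binding protein and factor I protect host cells. Most of these proteins are secreted by hepatocytes, and liver cancer lines keep many of them. Values are array levels, so they describe messenger RNA and say nothing of plasma protein or activity.

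The mature microRNA that MRX34 mimics is miR-34a-5p, shown because it is the agent the study tested. RefSeq places it on the minus strand of chr1:9151735-9151756 (GRCh38.p14), and the capitals mark the seed, bases 2 to 8.
hsa-miR-34a-5p: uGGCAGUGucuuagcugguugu

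The arrays differed in brightness. Mean background-subtracted intensity ranged from 163 to 616, and between 31.2% and 46.6% of named probes lay above background. Along the first principal component of all tested genes, empty liposomes 1 (85.6) and MRX34 2 (-45.6) stood farthest apart. All 7 markers of the Hep3B tumour, AFP and albumin among them, were above background, with a mean log2 level of 14.48 to 14.69 in MRX34 and 14.33 to 14.69 in the controls. Transcripts of the liver enzymes GNMT and OTC varied widely, with a mean level of 8.21, 10.06 and 14.32 log2 units in dilution buffer, 13.57, 11.95 and 10.80 in empty liposomes and 11, 10.05 and 7.73 in MRX34. Of the wider list of 14 liver enzymes, 10 were above background, and their summed level spanned 7856 to 14793 in MRX34 and 8675 to 70165 in the controls. In whole tumours, fewer cells of a type and less RNA per cell cannot be told apart.

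After MRX34, the terminal complement genes C8A and C6, the clotting inhibitor TFPI and both chains of C4b-binding protein were higher than in the controls, and the central complement gene C3 was lower. On the brightest probes, fibrinogen chains, factors V, VII, X and XII and other tested terminal complement genes differed by at most 0.16 log2 units. Another FGG probe gave 0.39. In MRX34 against both controls, limma called 0 of 38 members and 0 of 15387 genes (0%) at the adjusted threshold of 0.05. At an unadjusted p under 0.05, 7 members were higher and 1 was lower, together 21.1% of the 38, against 11.1% of all genes (6.88% higher and 4.24% lower). One of the 7 is PROCR, which passed the background filter only with the MRX34 arrays, where it was high. With genes above background on all 9 arrays, 6 of 33 members were higher and 0 lower (18.2%, against 15.5% of all genes). That filter removed PROCR and also C3, the only lower member, which was not above background on MRX34 2. The levels of all 3 MRX34 arrays lay above all 6 controls for 5 members, C8A, C6, TFPI, C4BPB and CFB, against 4.85% of all genes, and below all 6 for C3, against 2.11%. The median log2 difference was 0.12 over the members and 0.04 over all genes, with 29 of 38 members above 0 against 55% of all genes. That member median was 0.24 without MRX34 3 and 0.07 without empty liposomes 1 and dilution buffer 3, the ends of its range over 22 alternatives. Levels are quantile normalized log2 intensities after background correction, and the offset of 16 used there shrinks the differences of dim probes.

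**Figure D1:**
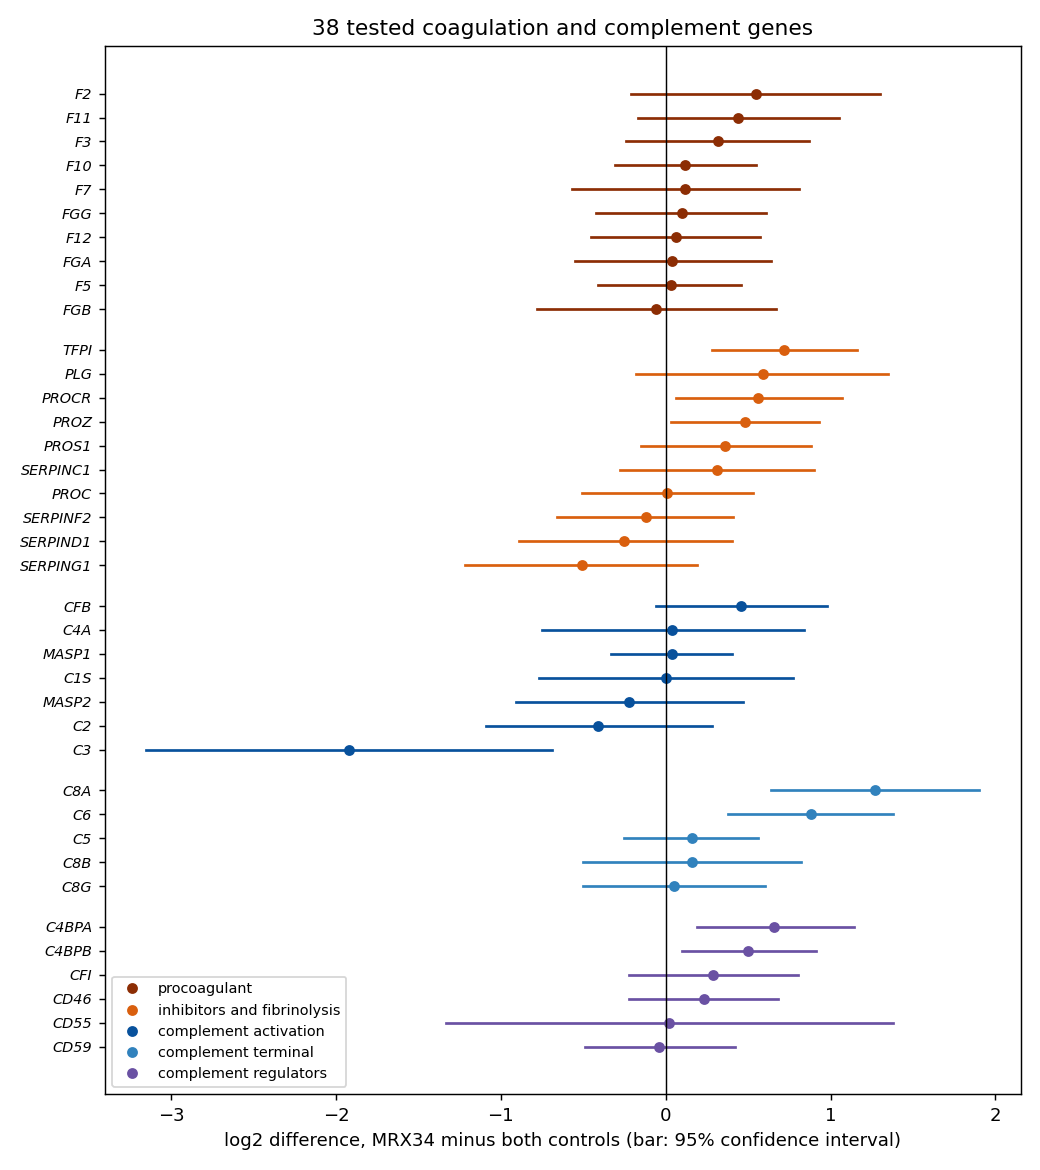
Log2 difference between MRX34 and the mean of both controls for each of the 38 tested genes, grouped by role, with the 95% confidence interval of the limma fit as a bar. C8A (1.27), C6 (0.88), TFPI (0.72), C4BPA (0.66), PROCR (0.56), C4BPB (0.50) and PROZ (0.48) have intervals above 0, C3 (-1.92) has one below 0, and the intervals of the other 30 genes cross 0.

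The terminal complement genes encode the parts of the membrane pore. C8A, the alpha chain of C8 that enters the membrane, had levels of 7.88, 7.30 and 7.37 in dilution buffer, 6.69, 7.84 and 7.71 in empty liposomes and 8.74, 9.01 and 8.45 in MRX34. The lowest MRX34 array lay above the highest control. The difference was 1.27 (SE 0.282), or 2.41-fold, with an unadjusted p of 0.00121 and an adjusted p of 0.246. C6, which joins C5b to begin the pore, read 8.40, 7.95 and 7.98 in dilution buffer, 7.45, 8.32 and 8.04 in empty liposomes and 8.73, 9.01 and 8.97 in MRX34. These groups did not overlap either, and C6 was 0.88 higher (SE 0.222), or 1.84-fold, with an unadjusted p of 0.0028 and an adjusted p of 0.302. For both genes the lowest of the 9 arrays was empty liposomes 1, the dimmest array, and without it the differences were 1.09 for C8A and 0.76 for C6.

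C8B, the beta chain, differed by 0.16 (95% interval -0.50 to 0.82) and C8G, the lipocalin-like gamma chain, by 0.05 (-0.50 to 0.60). C8G read 11.65, 10.66 and 11.63 in MRX34 against 11.04 to 11.47 in the controls, so MRX34 2 was the lowest of the 9 arrays for C8G while it was the highest for C8A. C5, the precursor whose cleavage starts the pore, differed by 0.16 (-0.25 to 0.56) and spanned only 1.52-fold over the 9 arrays. The difference between C8A and its partner chains was not tested. Against dilution buffer alone, C8B was 0.18 higher (adjusted p = 0.865 with limma). With arrays weighted by quality it was 0.58 higher (adjusted p = 0.034 with limma), in a refit that called 2828 of 15387 genes. C9, which completes the pore, was above background on 0 arrays.

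The complement regulators restrain the pathway on host surfaces and in plasma. C4BPA, the alpha chain of the C4b-binding protein that inactivates C4b, had levels of 11.35, 10.74 and 10.43 in dilution buffer, 10.86, 10.80 and 10.72 in empty liposomes and 11.32, 11.60 and 11.53 in MRX34. Dilution buffer 1 lay within the MRX34 range, and the other 5 controls lay below it. The difference was 0.66 (SE 0.214), with an unadjusted p of 0.0114 and an adjusted p of 0.374. C4BPB, the beta chain that binds protein S, read 11.69, 11.34 and 11.17 in dilution buffer, 11.46, 11.65 and 11.63 in empty liposomes and 12.12, 12.10 and 11.76 in MRX34. All MRX34 arrays were above the controls, by 0.50 on average (SE 0.181, adjusted p = 0.398). A second C4BPB probe gave 0.27.

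CFI, the protease factor I that cuts C3b and C4b, differed by 0.29 (95% interval -0.22 to 0.80). CD46, its membrane cofactor, read 11.51, 11.30 and 10.73 in dilution buffer, 11.06, 11.19 and 11.22 in empty liposomes and 11.23, 11.60 and 11.37 in MRX34. Its groups overlapped, with a difference of 0.23 on 1 probe and 0.36 on another. CD59, which blocks the pore, differed by -0.04, and was highest in dilution buffer, at 7.54, 7.35 and 7.41, with 6.69, 7.11 and 7.18 in empty liposomes and 6.76, 7.44 and 7.33 in MRX34. CD55, decay-accelerating factor, was above background on 2 empty-liposome arrays, 1 MRX34 array and 0 dilution buffer arrays. Its level was 8.01 on empty liposomes 1, 5.81 and 4.61 on the other empty-liposome arrays, 4.60 to 5.04 in dilution buffer and 5.03 to 6.17 in MRX34. With dilution buffer held at the lowest signal above background, mean CD55 was 1.85-fold higher in empty liposomes. Against the same buffer value, the MRX34 mean was 1.17-fold higher. Both means include arrays not above background, so these ratios are not lower bounds. The adjusted p-values of the log2 differences were 0.766 and 0.729 with limma. The 95% intervals of the log2 differences, -0.2 to 2.93 and -0.86 to 2.27, both crossed 0. CD55 passed the background filter only through the groups where it was higher, so its values support no difference. The first ratio rests on empty liposomes 1, without which the log2 difference was 0.43, and the second on MRX34 2.

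**Figure D2:**
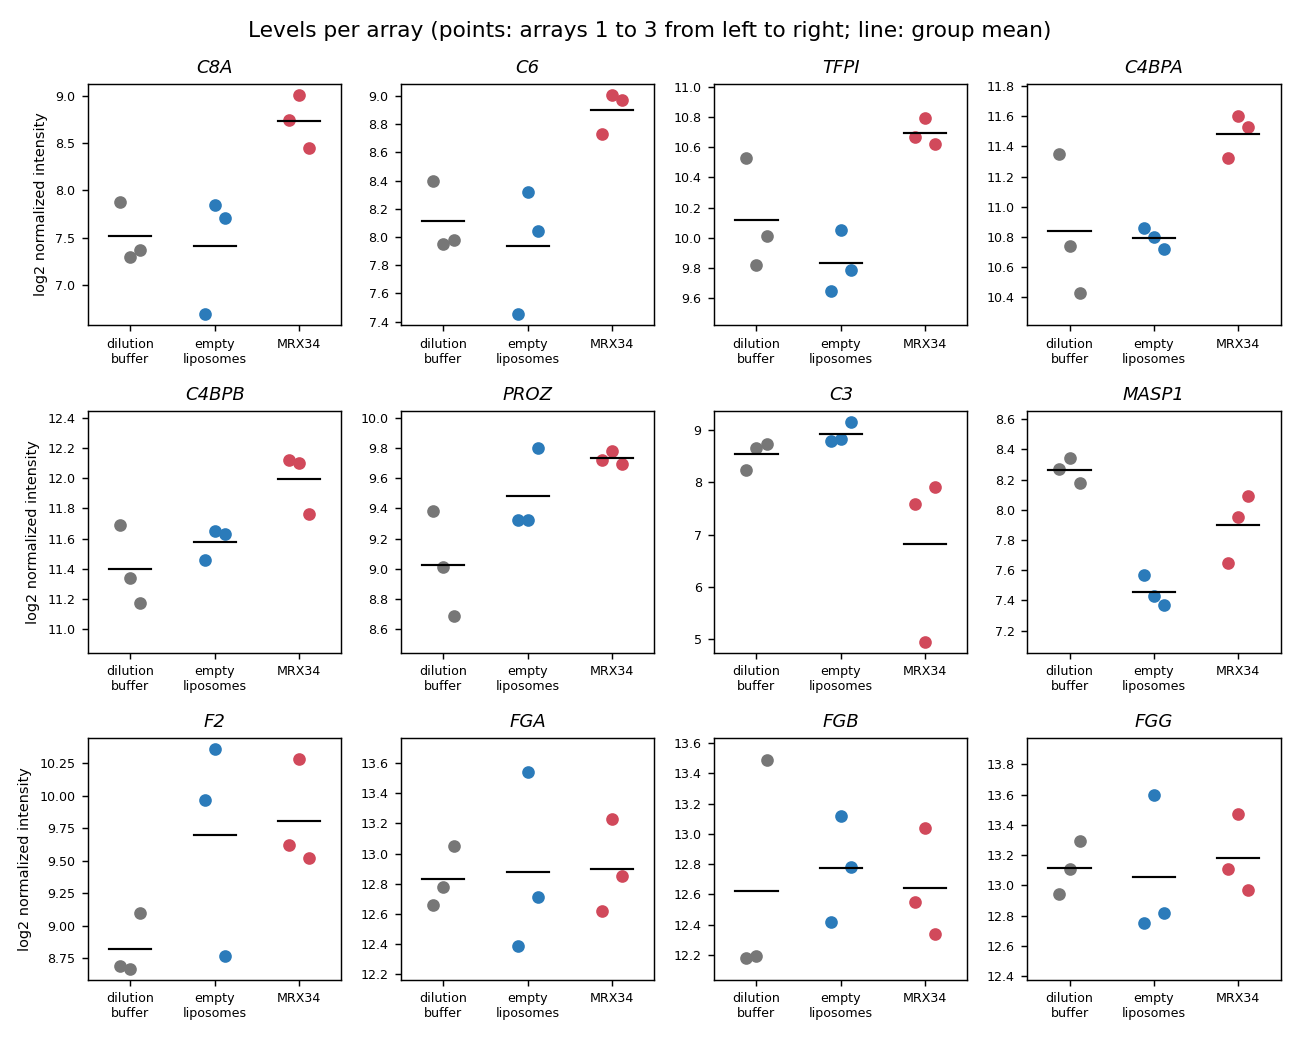
Log2 normalized intensity of 12 genes on each array (points, arrays 1 to 3 from left to right) with the group mean as a line, in separate panels with their own vertical scales. The 3 MRX34 points lie above every control for C8A, C6, TFPI and C4BPB and below every control for C3, where MRX34 2 (4.95) is far below the other points, and the groups overlap for the fibrinogen genes FGA, FGB and FGG.

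Among the inhibitors of coagulation and the fibrinolysis genes, 7 of 10 were higher and 3 lower, where 55% of all genes were higher. Their median was 0.34, against 0.04 for all genes. TFPI, tissue factor pathway inhibitor, which blocks factor Xa and the factor VIIa complex, had levels of 10.53, 9.82 and 10.01 in dilution buffer, 9.65, 10.05 and 9.79 in empty liposomes and 10.67, 10.79 and 10.62 in MRX34. Every MRX34 array lay above every control, and dilution buffer 1 came closest. The difference was 0.72 (SE 0.198), or 1.65-fold, with an unadjusted p of 0.00477 and an adjusted p of 0.326. The other TFPI probes were higher by 0.75 and 1.09, so all 3 probes gave a higher level. On the probe with 0.75, MRX34 3 (10.59) was level with dilution buffer 1 (10.60), and on the probe with 1.09 all MRX34 arrays lay above all controls.

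PROZ, protein Z, the vitamin K-dependent cofactor for inhibition of factor Xa, read 9.38, 9.01 and 8.69 in dilution buffer, 9.32, 9.32 and 9.80 in empty liposomes and 9.72, 9.78 and 9.69 in MRX34. MRX34 overlapped with empty liposomes through array 3 and not with dilution buffer. The difference from both controls was 0.48 (SE 0.201, adjusted p = 0.429). PROCR, the endothelial protein C receptor, was dim, with 5.05, 5.30 and 5.12 in dilution buffer, 5.36, 6.07 and 5.06 in empty liposomes and 5.91, 6.01 and 5.75 in MRX34. It was above background on all 3 MRX34 arrays and on 1 array of each control group, so it entered the tests only through MRX34, and its difference supports nothing. Of the 7 endothelial markers, only PECAM1 passed the filter, above background on 5 arrays, with levels of 5.71 to 6.01 in MRX34 and 4.90 to 5.53 in the controls. Like PROCR, PECAM1 passed only with the MRX34 arrays, where it was high, and its difference supports nothing. CDH5, KDR, TEK, FLT1, STAB2 and LYVE1 were not above background, and the part of endothelial RNA in the PROCR and TFPI values was not tested. Since the probes are named by human genes, these readings do not give the amount of mouse endothelium.

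PLG, plasminogen, the precursor of plasmin, read 10.85, 10.10 and 9.67 in dilution buffer, 9.84, 11.26 and 11.05 in empty liposomes and 11.04, 11.03 and 11.07 in MRX34. The MRX34 arrays were nearly equal (SD 0.0234, n = 3), and the controls spread to both sides of them. The difference was 0.59 (SE 0.342, adjusted p = 0.529), and it was 0.23 without dilution buffer 3 and empty liposomes 1. SERPINC1, antithrombin, showed the same shape, with 12.61, 11.99 and 11.56 in dilution buffer, 11.76, 12.38 and 12.60 in empty liposomes and 12.49, 12.39 and 12.51 in MRX34. Its difference was 0.31 with both arrays and 0.06 without them. Such evenness in MRX34 was not general, since MRX34 had the smallest SD of the 3 groups for 13 of the 38 members (34.2%), against 31.4% of all genes. Dilution buffer 3 and empty liposomes 1 also had the highest GNMT and OTC levels of the 9 arrays.

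SERPING1, the C1 inhibitor that restrains both the contact system and early complement, was lower by 0.51 (SE 0.315, adjusted p = 0.543). Its levels were 8.73, 9.20 and 8.11 in dilution buffer, 8.59, 9.53 and 9.87 in empty liposomes and 8.70, 8.37 and 8.40 in MRX34. The groups overlapped through dilution buffer 3 and empty liposomes 1, and without those arrays the difference was -0.84, with an unadjusted p of 0.0029 and an adjusted p of 0.374. A second, dimmer SERPING1 probe gave 0.11. SERPINF2, the plasmin inhibitor alpha-2-antiplasmin, averaged 12.84 in MRX34 and 12.96 in the controls, and read 13.67 on empty liposomes 3, its highest array. PROS1, protein S, the cofactor of protein C, differed by 0.36, and PROC, protein C itself, by 0.01. SERPIND1, heparin cofactor II, differed by -0.25.

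The early complement genes hold the widest range of any tested member. C3, on which all routes of activation converge, read 8.23, 8.66 and 8.74 in dilution buffer, 8.80, 8.84 and 9.16 in empty liposomes and 7.59, 4.95 and 7.91 in MRX34. All 3 MRX34 arrays lay below all controls, and MRX34 2 was not above background. C3 thus met the background filter only with control arrays, where it was high. In the deposited intensities that array stood at 93.9, the other MRX34 arrays at 263.3 and 312.3, and the controls between 371.6 and 645.2. The difference was -1.92 (SE 0.55), or 3.79-fold, with an unadjusted p of 0.00601 and an adjusted p of 0.335. Without MRX34 2 it was -0.99. A second C3 probe was above background on 0 arrays and could not be compared.

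CFB, factor B, the protease of the alternative route, read 12.31, 11.98 and 11.37 in dilution buffer, 12.35, 11.87 and 12.44 in empty liposomes and 12.55, 12.49 and 12.48 in MRX34. MRX34 lay just above the highest control, with a difference of 0.46 (SE 0.232, adjusted p = 0.481). C2, the related protease of the classical and lectin routes, read 11.68, 11.34 and 10.71 in dilution buffer, 11.64, 11.14 and 12.29 in empty liposomes and 11.36, 10.66 and 11.16 in MRX34. It overlapped and differed by -0.41 (95% interval -1.09 to 0.28). C1S, a protease of the C1 complex, averaged 7.14 both in MRX34 and in the controls and ranged from 6.32 on empty liposomes 1 to 7.88 on empty liposomes 3. MASP2, the lectin-route protease that cleaves C4, differed by -0.22 on its brightest probe, and its 3 probes gave values from -0.22 to 0.25. C4A was above background on 3 arrays only, and since C4A and C4B are near-identical copies its value of 0.04 is uncertain as to which copy it reads.

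Of the 10 tested procoagulant genes, 9 were higher and 1 lower against both controls (median 0.11), where 55% of all genes were higher. At an unadjusted p under 0.05 there were 0, against 11.1% of all genes. With 10 genes these shares cannot be told apart. The 3 fibrinogen chains, which together form the clot protein, were close between groups on their brightest probes. FGA read 12.66, 12.78 and 13.05 in dilution buffer, 12.39, 13.54 and 12.71 in empty liposomes and 12.62, 13.23 and 12.85 in MRX34. FGG read 12.94, 13.11 and 13.29, then 12.75, 13.60 and 12.82, then 13.11, 13.47 and 12.97 in the same order of groups. Array 2 was the highest of its group for both genes in empty liposomes and in MRX34. FGB read 12.18, 12.19 and 13.49 in dilution buffer, 12.42, 13.12 and 12.78 in empty liposomes and 12.55, 13.04 and 12.34 in MRX34. FGB shared the high array 2 of those groups and was highest of all on dilution buffer 3. The differences were 0.04 for FGA (95% interval -0.55 to 0.64), -0.06 for FGB (-0.78 to 0.67) and 0.10 for FGG (-0.42 to 0.61). Over all probes past the filter, they spanned -0.22 to 0.04 for FGA, -0.06 to 0.14 for FGB and 0.10 to 0.39 for FGG.

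F2, prothrombin, had the widest range among the procoagulant genes. Its levels were 8.69, 8.67 and 9.10 in dilution buffer, 9.97, 10.36 and 8.77 in empty liposomes and 9.62, 10.28 and 9.52 in MRX34. All MRX34 arrays and 2 of 3 empty-liposome arrays lay above dilution buffer. The difference from both controls was 0.55 (SE 0.338, adjusted p = 0.547), and it was 0.31 without empty liposomes 3 and 0.31 without MRX34 2. F3, tissue factor, the cellular trigger of clotting, was dim, at 5.88, 5.63 and 5.51 in dilution buffer, 6.81, 5.79 and 5.83 in empty liposomes and 6.45, 6.11 and 6.12 in MRX34. Its 2 probes disagreed, at 0.32 and -0.34. F11, factor XI, differed by 0.44 and was carried by MRX34 1, at 7.14 against 5.80 and 6.31 on the other MRX34 arrays. Factors F5, F7, F10 and F12 differed by 0.03, 0.12, 0.12 and 0.06.

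**Figure D3:**
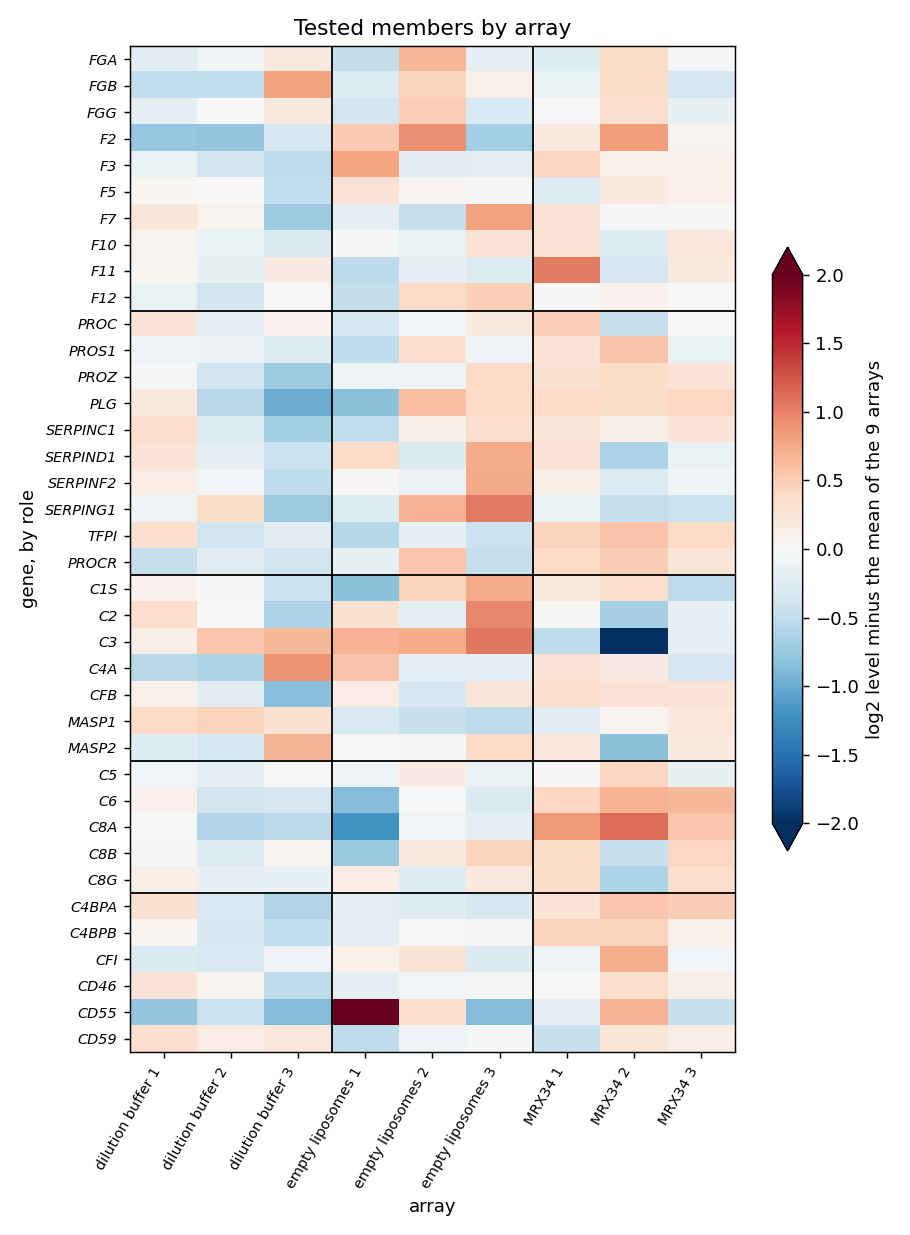
Log2 level of each tested gene on each array minus that gene's mean over the 9 arrays, with genes by role (horizontal lines) and arrays by group (vertical lines), and the colour scale ending at 2 in both directions. C8A, C6, TFPI and C4BPA are above their mean on all MRX34 arrays, C3 is far below it on MRX34 2, and dilution buffer 3 is the lowest array for 14 of the 38 genes.

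Each control alone gave related pictures for the same MRX34 arrays. Against empty liposomes 5 members were higher and 2 lower at an unadjusted p under 0.05, together 18.4% of the 38 against 9.35% of all genes (6.29% higher and 3.06% lower), and 0 members and 0 genes (0%) passed the adjusted threshold. The groups did not overlap for 8 higher members and 1 lower, where 9% and 5.41% of all genes did so. C8A was 1.33 higher (SE 0.325, adjusted p = 0.376), C6 0.97 (SE 0.256, adjusted p = 0.405), TFPI 0.87 (SE 0.228, adjusted p = 0.405) and C4BPA 0.69 (SE 0.247, adjusted p = 0.493). C3 differed by -2.12 (SE 0.635, adjusted p = 0.469), and SERPING1 differed by -0.84 (SE 0.364, adjusted p = 0.533). C3 was -1.19 without MRX34 2. SERPING1 was -0.57 without empty liposomes 3, with an unadjusted p of 0.167. The median over members was 0.12, and over all genes 0.05, with 26 members above 0 against 55% of all genes. That member median was 0.04 without empty liposomes 1, and 0.03 both with array weights and with the GNMT and OTC level as a covariate, where the medians of all genes were 0.01, 0 and 0.02.

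Against dilution buffer, 9 members were higher and 1 lower at an unadjusted p under 0.05, together 26.3% against 10.1% of all genes (5.83% higher and 4.31% lower), and again 0 members and 0 genes (0%) passed the adjusted threshold. The groups did not overlap for 10 higher members and 2 lower, against 13% and 8.3% of all genes. Beside C8A (1.22), C6 (0.79), TFPI (0.57), C4BPA (0.64) and C4BPB (0.59), the higher members were F2 (0.98, adjusted p = 0.465), PROZ (0.71, adjusted p = 0.447) and CFB (0.62, adjusted p = 0.475), with PROCR, which entered only through MRX34, as the ninth. C3 was the lower one (-1.73, adjusted p = 0.451), at -0.80 without MRX34 2, and its unadjusted p was under 0.05 in 20 of 23 alternatives. F2 was 0.75 without MRX34 2, with an unadjusted p of 0.113. The median was 0.20, against 0.04 for all genes, and 30 members were above 0 against 54.1% of all genes. C8A, C6, TFPI, C4BPA and C3 had an unadjusted p under 0.05 in all 3 MRX34 contrasts, which share the MRX34 arrays and some controls. Against dilution buffer, C3, TFPI and C4BPA did not reach it without empty liposomes 1 and dilution buffer 3. TFPI and C4BPA also missed it there without MRX34 3, and TFPI with the GNMT and OTC covariate. Against empty liposomes, C4BPA missed it with that covariate and without MRX34 3. The share of all genes that reached it in all 3 contrasts was not computed, so the shared list is no result about the members as a set.

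Empty liposomes against dilution buffer compares the carrier with the buffer in the absence of the mimic. At an unadjusted p under 0.05, 1 member was higher and 1 lower, 5.26% of 38 against 5.76% of all genes (2.74% higher and 3.03% lower), and 0 members and 0 genes (0%) passed the adjusted threshold. The groups did not overlap for 1 higher member, C3, and 3 lower, against 6.11% and 5.55% of all genes. The median was 0.17, and -0.03 over all genes, with 28 members above 0 against 46.9% of all genes. MASP1, a lectin-route protease that activates MASP2, read 8.27, 8.34 and 8.18 in dilution buffer, 7.57, 7.43 and 7.37 in empty liposomes and 7.65, 7.95 and 8.09 in MRX34. The empty-liposome arrays lay below all others, and the difference from dilution buffer was -0.81 (SE 0.19), with an unadjusted p of 0.00182 and an adjusted p of 0.766. The other 3 MASP1 probes past the filter gave -0.15, -0.41 and -0.59 and were dim. F2 was 0.88 higher (SE 0.39, adjusted p = 0.766), with empty liposomes 3 at the level of dilution buffer, and 1.34 higher without that array. CD59 differed by -0.44 and F11 by -0.34, both with separate groups. For F11 the gap was small, from 5.95 on empty liposomes 2 to 5.97 on dilution buffer 2. Second, dimmer probes gave -0.20 for CD59 and -0.11 for F11. On both, empty liposomes 2 lay above all dilution buffer arrays.

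**Figure D4:**
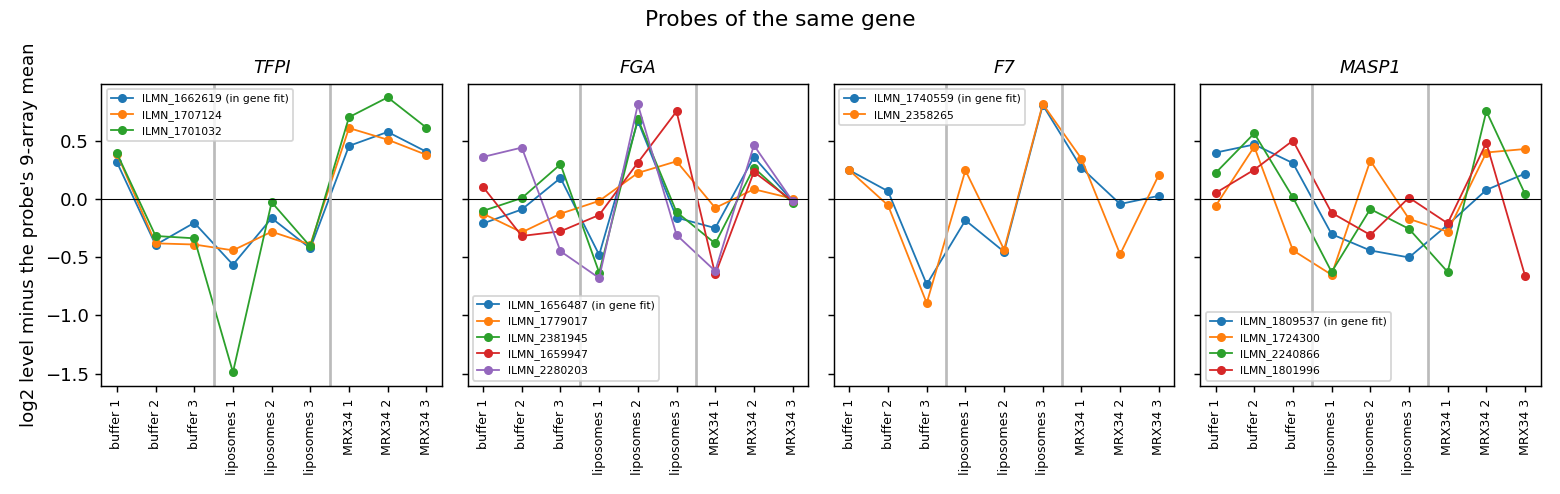
Log2 level minus the probe's own mean over 9 arrays (vertical axis) on each array (horizontal axis) for the probes of TFPI, FGA, F7 and MASP1 that passed the background filter, with lines joining the arrays of one probe. The 3 TFPI probes are all high on the MRX34 arrays, the F7 probes follow each other, and the FGA and MASP1 probes do not all move together.

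Probes of the same gene were a check on the readings. Of the 13 members with more than 1 probe past the filter, 5 had all probes on the same side in MRX34 against both controls, namely C4BPB, CD46, F7, FGG and TFPI. The other 8 had probes on both sides of 0 or at it. The widest disagreements were F3 (0.66 between its probes), SERPING1 (0.62), F11 (0.48) and MASP2 (0.47). C8A, C6, C4BPA, PROZ, PLG and CFB rest on 1 probe each, and C3 on 1 probe above background.

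The 7 members that did not enter the tests were F9 (factor IX), F13B (the carrier subunit of factor XIII), C1R (the partner of C1S), C4B, MBL2 (mannose-binding lectin), C9 and CLU (clusterin, a fluid-phase regulator of the pore). F9, F13B and C1R were above background on 2 arrays at most, MBL2 and CLU on 1, and C4B and C9 on 0. In dim genes a low reading bounds the level on these probes and does not show that the gene is silent. Of the 38 tested members, 33 were above background on all 9 arrays.

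The promoters of the 4 higher genes with the smallest p are set beside those of 2 fibrinogen genes that were not, to show what their starts share. RefSeq (GRCh38.p14) gave an entry for 36 of the 45 members, and each line holds the 250 bases before the annotated start, read along the gene. C8A lies at chr1:56854547-56854796 (plus strand), C6 at chr5:41261470-41261719 (minus), C4BPA at chr1:207103983-207104232 (plus), TFPI at chr2:187554436-187554685 (minus), FGA at chr4:154590743-154590992 (minus) and FGB at chr4:154562730-154562979 (plus). C6 and FGB have 2 annotated starts, of which the first listed is shown. Capitals mark TTGCNNAA on either strand, a pattern of the C/EBP factors of the liver.
C8A: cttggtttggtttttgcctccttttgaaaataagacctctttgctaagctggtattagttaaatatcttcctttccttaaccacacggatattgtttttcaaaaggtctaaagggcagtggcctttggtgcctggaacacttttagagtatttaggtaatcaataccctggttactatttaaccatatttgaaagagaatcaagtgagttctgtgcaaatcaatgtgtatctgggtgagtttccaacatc
C6: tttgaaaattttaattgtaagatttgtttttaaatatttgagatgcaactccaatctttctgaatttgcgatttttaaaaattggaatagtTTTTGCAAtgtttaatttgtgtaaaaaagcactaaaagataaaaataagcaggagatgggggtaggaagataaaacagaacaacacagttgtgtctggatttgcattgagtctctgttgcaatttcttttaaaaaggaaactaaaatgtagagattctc
C4BPA: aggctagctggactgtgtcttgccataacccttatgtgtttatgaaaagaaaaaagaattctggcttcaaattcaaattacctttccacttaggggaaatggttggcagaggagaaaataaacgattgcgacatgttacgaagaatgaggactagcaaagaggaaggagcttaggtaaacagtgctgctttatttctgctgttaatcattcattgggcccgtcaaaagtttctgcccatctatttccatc
TFPI: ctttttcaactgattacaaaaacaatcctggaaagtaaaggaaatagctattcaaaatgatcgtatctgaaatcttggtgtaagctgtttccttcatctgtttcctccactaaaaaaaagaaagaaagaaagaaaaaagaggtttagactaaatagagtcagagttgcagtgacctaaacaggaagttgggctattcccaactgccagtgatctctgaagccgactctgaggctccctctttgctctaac
FGA: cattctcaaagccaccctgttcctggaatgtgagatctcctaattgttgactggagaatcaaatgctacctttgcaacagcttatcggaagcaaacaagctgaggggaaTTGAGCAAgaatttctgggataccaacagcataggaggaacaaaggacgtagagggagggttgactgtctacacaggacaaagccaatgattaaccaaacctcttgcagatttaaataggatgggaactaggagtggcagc
FGB: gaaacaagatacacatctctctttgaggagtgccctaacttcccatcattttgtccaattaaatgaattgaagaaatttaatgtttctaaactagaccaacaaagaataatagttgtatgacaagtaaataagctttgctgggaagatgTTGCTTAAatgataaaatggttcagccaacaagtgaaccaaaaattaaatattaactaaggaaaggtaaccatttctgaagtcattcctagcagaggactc

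The pattern began at position -159 in C6, -141 in FGA and -101 in FGB, with -1 the last base before the start, and was not in the windows of C8A, C4BPA and TFPI. It was thus held both by a gene that was higher after MRX34 and by 2 that were not. Over the 36 members, TTGCNNAA was in the window of 7 (19.4%), against 11% of 27305 genes. Windows of 10 members (27.8%) held TTCNNNGAA, the STAT pattern, against 8.09% of all genes. Both strands were searched, and FGA held both patterns. A match describes letters in these windows and not binding.

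Neighbouring genes of the same systems gave a mixed account, with 0 passing the adjusted threshold in any contrast. Of 19 tested of 26 other coagulation genes, 12 were higher and 7 lower in MRX34 against both controls (median 0.07). Only 1 had an unadjusted p under 0.05 (5.26%), a smaller share than the 11.1% of all genes. That was KLKB1, plasma prekallikrein of the contact system, with 7.04, 7.06 and 6.75 in dilution buffer, 5.96, 7.80 and 7.31 in empty liposomes and 7.82, 8.35 and 7.97 in MRX34. All MRX34 arrays lay above the controls, the lowest (7.82) only just above empty liposomes 2 (7.80). KLKB1 was 1.06 higher on average (SE 0.353, adjusted p = 0.375), and 0.79 higher without empty liposomes 1. Its contact partners differed by little, with 0.07 for KNG1, kininogen, and 0.06 for F12. Of 12 tested of 25 other complement genes, 7 were higher and 5 lower (median 0.13).

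Of the 5 genes for vitamin K recycling and factor secretion, 1 was higher and 4 lower or level, with a median of -0.10. VKORC1L1, a vitamin K epoxide reductase, differed by -0.52 (SE 0.198, adjusted p = 0.414), while VKORC1, the main reductase of the liver, differed by -0.10 and the carboxylase GGCX by -0.17. The 6 tested vitamin K-dependent members all had differences above 0, where 55% of all genes did. Their median was 0.24 and their range 0.01 (PROC) to 0.55. Of them 1, PROZ, had an unadjusted p under 0.05 (16.7%, against 11.1% of all genes). Against dilution buffer 5 were above 0 and 1 below, PROC at -0.05. Among 10 liver transcription factors, 3 were higher and 7 lower (median -0.19). HNF4A differed by 0.44 (adjusted p = 0.45), ONECUT1 by -0.61 (adjusted p = 0.409) and CEBPB by -1.13 (adjusted p = 0.445). CEBPB was highest on dilution buffer 3 (13.23) and empty liposomes 1 (12.83), the arrays with most GNMT and OTC. Of 7 tested of 12 acute phase genes, 4 were higher and 3 lower (median 0.06). Of these, 0 had an unadjusted p under 0.05, against 11.1% of all genes.

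Dilution buffer 3, with the highest GNMT and OTC level, was the lowest of the 9 arrays for 14 of 38 members (36.8%), against 15.4% of all genes, among them PLG, SERPINC1, PROZ, CFB and C4BPA. Empty liposomes 1, with the next highest, was the lowest for 11 (28.9%), against 29.1% of all genes, among them C8A, C6 and TFPI. With this level as a covariate, the differences from both controls were 1.13 for C8A, 0.73 for C6, 0.63 for TFPI, 0.48 for C4BPA and -1.98 for C3, and 0.31 for PROZ, 0.24 for PLG and 0.02 for SERPINC1. Without both arrays, C8A differed by 1.05, C6 by 0.73, TFPI by 0.65, C4BPA by 0.58 and C3 by -1.91. At an unadjusted p under 0.05, 6 members were higher and 2 lower of 38 with the covariate, together 21.1% against 7.62% of all genes. These were not the same members as without it, since C4BPB and PROZ left and SERPING1 and C4A, a dim gene, entered. The 6 include PROCR and C4A, which passed the background filter only with MRX34 arrays and add no support. Without the 2 arrays 5 were higher and 2 lower, 18.4% against 10.1% of all genes, with C4BPB, PROCR and PROZ gone and SERPING1 and F3 added. For leukocytes, 5 of 10 markers were above background and PTPRC, CD163, MARCO, ITGAM and CD3E were not, with a summed level of 2976 to 3468 in MRX34 and 2082 to 3076 in the controls. Of the platelet markers 3 of 6 were above background, with 169 to 252 in MRX34 and 128 to 212 in the controls, and their differences were 0.83 for GP1BA, 0.01 for ITGA2B and -0.23 for PPBP. Of the fibroblast markers 3 of 7 were, with 1024 to 1241 in MRX34 and 850 to 2222 in the controls. The part of these cell types in the member values was not tested. Since the probes are named by human genes, these sums do not give the amount of mouse host cells.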

How the data were processed

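RNA of Hep3B tumours was read on 9 Illumina arrays, 3 per group, grouped by the sample names in the labels. Per the file headers, the deposited table holds an intensity and a detection p-value for each probe and array. The deposited intensity values of that table were found, from the values, to be quantile normalized and not background-subtracted. A second deposited table, used as an alternative, holds background-subtracted intensity values that were not normalized. The sources used here name neither the scanner software nor the normalization method.

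Background was removed with normexp on the detection p-values (offset 16), followed by quantile normalization and log2, in limma 3.58.1 under R 4.3.3. Of 47322 probes, 43906 were named. Probes with a detection p under 0.05 on at least 3 of 9 arrays were kept (19802), with the brightest probe for each of 15387 genes. Group means were fitted on all 9 arrays with limma (moderated two-sided tests, Benjamini-Hochberg over all genes, threshold 0.05), and both controls entered with equal weight. The number of arrays limits the precision. The fit was run on simulated data as a check of the code. Those data had no shared array effects, unequal array quality or replicate correlation, so they do not test the fit under these.

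Values per array are given for the 2 brightest members of each role, the 8 with the widest ranges, the 3 with the smallest p per contrast and direction, the fibrinogen chains and F3, and other members and listed genes are named besides. The members, lists and naming rule were chosen with earlier results of these data known. Alternatives concerned the background step, scaling, source table, background filter, choice of probe, groups fitted, variance, weights of arrays, pairing, a covariate and arrays left out. Those without 2 arrays, and with a block on 6 arrays, were chosen after seeing the data. Deviations from the group means correlated at 0.44, 0.49 and 0.28 between equal replicate numbers of empty liposomes and MRX34, at -0.19, 0.3 and -0.32 between dilution buffer and empty liposomes, and at -0.06, 0.14 and -0.15 between dilution buffer and MRX34. By the rule that every pair exceed 0.1, the numbers paired the first 2 groups, though the labels state no pairing. Some genes of the listed sets are not reported here.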

Additional observations from a re-analysis of the deposited data

Results flagged for a closer look

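Over the 6 controls, 4 of the 38 tested members had 1 array far from the others by Dixon's test, which chance alone gives in about 1 in 20 groups. F3 stood at 6.81 on empty liposomes 1, with the nearest other control at 5.88. F5 stood at 10.28 on dilution buffer 3, with the nearest at 10.78. PROCR stood at 6.07 on empty liposomes 2, with the nearest at 5.36. CD55 stood at 8.01 on empty liposomes 1, with the nearest at 5.81.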

How the results depend on the processing

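C8A, C6, TFPI and C4BPA were higher in MRX34 than in both controls in all 23 alternatives, each with an unadjusted p under 0.05, at 0.99 to 1.41, 0.73 to 0.98, 0.63 to 0.85 and 0.48 to 0.79. C3 was lower in all 22 that gave it a value, at -2.47 to -0.99. The threshold depended on array weights, which gave dilution buffer 2 a weight of 8.12 and MRX34 3 one of 4.65. They called 1465 genes and 6 members against both controls, 267 and 1 against empty liposomes (C6, 0.91), 2828 and 13 against dilution buffer, and 6 genes and 0 members between the controls. The 6 members were C8A (1.03), C6 (0.93), TFPI (0.78), C4BPA (0.74), C3 (-1.16) and SERPING1 (-0.95), and KLKB1 (0.82) was called too. Against both controls, 2 genes were called without background correction, 2 with an offset of 50, 2 with the filter on all 9 arrays, 1 with a trended and robust variance, and 0 to 1 leaving out 1 array. Against empty liposomes, 3 were called with a trended and robust variance and 0 to 2 leaving out 1 array. With the replicate number as a block, 0 members were called, C8A differed by 1.27 (adjusted p = 0.319) and C3 by -1.92 (adjusted p = 0.327), and no adjusted call changed. The unadjusted p of PROZ was 0.0574 there, and that of SERPING1 against empty liposomes 0.0596. In the 6 paired arrays, C2 differed by -0.63 (unadjusted p = 0.0376, adjusted p = 0.306 with limma) and SERPING1 by -0.84 (unadjusted p = 0.0479). Against both controls, 26 members were followed over the alternatives, and 35 values changed sign in 11 of them, whose main differences were at most 0.32. Sign changes of the other tested members were not counted. With the mean of a gene's probes FGA was -0.07, CD59 0.04, FGB 0.04 and F3 -0.01. C1S was 0.01 under 75th percentile scaling, and array weights gave FGG 0 and CD59 0.02. The GNMT and OTC covariate gave C8G -0.02, MASP1 -0.01 and FGB 0.24, and leaving out dilution buffer 3 and empty liposomes 1 gave FGA -0.02 and FGB 0.07. Leaving out 1 array gave -0.24 to 0.25 for C1S, -0.36 to 0.49 for CD55, -0.25 to 0.16 for FGB, -0.12 to 0.21 for FGA, -0.12 to 0.37 for C8G, -0.22 to 0.01 for SERPINF2, -0.16 to 0.17 for CD59, -0.05 to 0.23 for FGG, -0.01 to 0.28 for C5 and -0.06 to 0.16 for MASP1. The causes were not tested. Low signal over background limits PROCR, CD55, C4A, F11 and C3 on MRX34 2.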
